A study of Rattus norvegicus with 4 samples.

Results

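Serum exosomes (Exos) of rats were profiled by small RNA sequencing, and the vascular miRNAs miR-126a, miR-143, miR-145, miR-221 and miR-222 are described here. Every listed arm of these 5 hairpins was taken by name, which gave 6 of the 243 miRNAs in the deposited values. These were rno-miR-126a-3p, rno-miR-126a-5p, rno-miR-143-3p, rno-miR-145-5p, rno-miR-145-3p and rno-miR-221-3p, written below without the rat prefix. The cells that released them cannot be read from serum values. RefSeq names 10 mature arms for these hairpins, and the other arms, with both arms of miR-222 among them, were not analysed here.

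The 4 libraries comprised 2 with the treatment label exercise (treadmill running over several weeks) and 2 with the label sedentary (no training). The series text speaks of 20 rats per group, but how rats were combined into libraries was not given, so p-values measure only the spread between these libraries, which may be technical. Strain and age are not in the labels, and the study's methods describe adult male SD rats. Titles of the libraries labelled sedentary begin with E and those of the libraries labelled exercise with N, so labels and titles may conflict. The directions in the study's own account of its groups run with the title letters, so the treatment labels may be exchanged. Groups follow the treatment labels here, all directions would turn if the letter E stood for exercise, and none is to be read as an effect of training.

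The deposited values were RPM, the reads of a miRNA scaled to a common library total. In such bulk material, fewer releasing cells and less RNA per cell cannot be told apart. Taking the smallest value of a library as 1 read, the totals were 20780612 to 22140315 reads, of which 649210 to 814439 fell on listed miRNAs. The libraries labelled sedentary held 151 and 152 miRNAs above 0, against 179 and 191 in those labelled exercise. By counting error alone, a count of 0 allows up to 3 reads, or 0.135 to 0.144 RPM. Libraries of the same label could differ by far more than this limit, with miR-7a-5p at 557 and 0 reads under the sedentary label. Wilson and Poisson intervals and these limits cover counting error only, because the reads carry no molecular identifiers, whereas intervals of log2 fold changes rest on the spread between libraries.

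A miRNA hairpin is cut into a 5p and a 3p arm, and the arm that is loaded into Argonaute pairs with target mRNAs mainly through its seed, bases 2 to 8. miR-126 is transcribed with Egfl7, a gene of endothelial cells, and is also abundant in platelets. Its 3p arm is known for strengthening vascular endothelial growth factor signalling by lowering Spred1 and Pik3r2. miR-143 and miR-145 are made from a shared primary transcript and keep vascular smooth muscle cells in their contractile state. miR-221 and miR-222 share a seed and promote smooth muscle proliferation while restraining endothelial growth.

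The mature sequences are shown because the arms of a hairpin carry unrelated seeds and the results below differ by arm. Each is written 5′ to 3′ with the seed in capitals. The first 6 are those listed with the deposited values (T in place of U), and the last 2 are RefSeq entries for the seed partner of miR-221-3p and the antisense neighbour of miR-126a-5p.
miR-126a-3p: tCGTACCGtgagtaataatgcg
miR-126a-5p: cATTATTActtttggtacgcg
miR-143-3p: tGAGATGAagcactgtagctca
miR-145-5p: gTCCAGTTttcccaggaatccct
miR-145-3p: gGATTCCTggaaatactgttc
miR-221-3p: aGCTACATtgtctgctgggtttc
miR-222-3p: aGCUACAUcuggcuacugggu
miR-126b: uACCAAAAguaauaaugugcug

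All 6 listed sequences were the same as their RefSeq entries (assembly GRCr8). No other listed miRNA shared the seed of a member, and the nearest other listed sequence lay 8 to 10 edits away, so no near-identical copy was among the listed miRNAs. The members were 21 to 23 nt long, around the median of 22 nt for all listed miRNAs.

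In GRCr8, which is not the assembly the authors aligned to, miR-126a-5p lies at chr3:29813182-29813202 and miR-126a-3p at chr3:29813219-29813240 on the plus strand, inside the span of Egfl7. RefSeq's symbol for this hairpin is Mir126b, with Mir126a as a synonym, and the arms were matched by their mature names. Mir126a is also the RefSeq symbol under which the antisense miR-126b stands. On the minus strand, miR-126b shares 17 positions with miR-126a-5p. The methods do not state whether counting used the strand, and without it reads of these partners cannot be told apart. miR-143-3p (chr18:57371373-57371394), miR-145-5p (chr18:57370033-57370055) and miR-145-3p (chr18:57369997-57370017) lie on the minus strand inside the long noncoding RNA gene Carmn, with 1278 bases between the hairpins. miR-221-3p lies at chrX:6023246-6023268 on the plus strand, with 458 bases between its hairpin and that of miR-222.

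The 6 arms ranged from among the most abundant listed miRNAs to a few reads. Averaged over the 4 libraries, miR-143-3p held 1631 RPM and ranked 7 of 243, and miR-126a-3p held 64.0 RPM and ranked 44. Then came miR-145-5p with 13.2 RPM (rank 73), miR-145-3p with 3.36 RPM (rank 115), miR-221-3p with 2.39 RPM (rank 127) and miR-126a-5p with 1.72 RPM (rank 142). The first 3 kept this order in 4 of 4 libraries, with ranges that did not touch. miR-145-5p exceeded miR-145-3p in 4 of 4 libraries, although the ranges over libraries overlapped. The last 3 could not be ordered, since miR-145-3p exceeded miR-221-3p in 2 of 4 libraries and miR-221-3p exceeded miR-126a-5p in 1 of 4. A read spans a mature miRNA from end to end, and dividing the mean RPM by length left the order as it was.

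**Figure D1:**
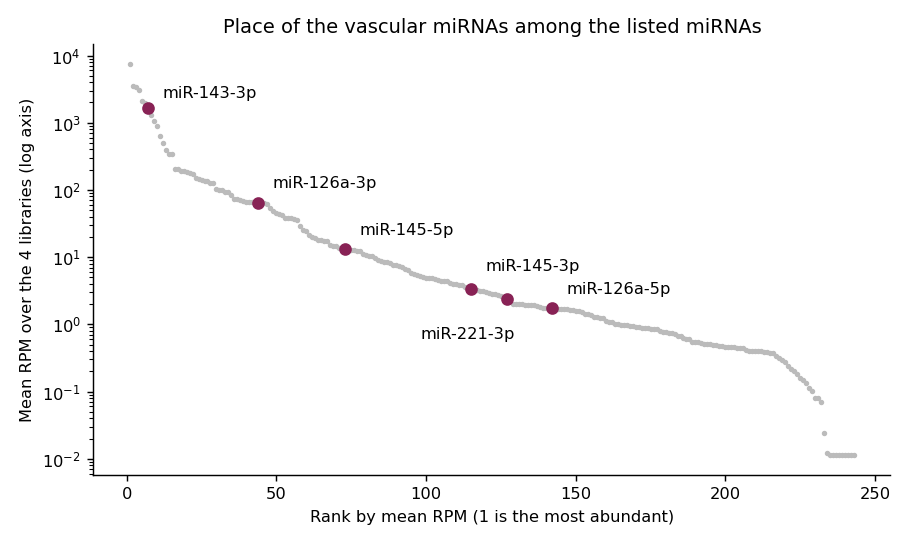
Mean RPM over the 4 libraries (log axis) against abundance rank for the listed miRNAs, in grey, with the 6 vascular arms in purple. miR-143-3p sits at rank 7 and miR-126a-3p at rank 44, while miR-145-3p, miR-221-3p and miR-126a-5p lie between ranks 115 and 142.

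The first question was whether the endothelial miRNA differed between the labelled groups. miR-126a-3p, its functional main arm, held 57.6 and 68.4 RPM in the libraries labelled sedentary and 67.5 and 62.6 RPM in those labelled exercise. The groups overlapped, with means of 63.0 ± 7.66 and 65.0 ± 3.48 RPM (SD, n = 2 each). Its log2 fold change, exercise label over sedentary label, was 0.049 (standard error 0.22, 95% interval -0.50 to 0.60, adjusted p = 0.89 from limma). The interval holds changes in both directions. The sign turned with median-of-ratios scaling (-0.052), without replicate 1 under the sedentary label (-0.074) and without replicate 1 under the exercise label (-0.0052).

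The values of its 5p arm were near the floor. miR-126a-5p was at 0 reads in both libraries labelled sedentary, and had 53 and 99 reads (2.41 and 4.47 RPM) in those labelled exercise. The groups did not overlap, and the mean of the libraries labelled exercise was 24.5-fold what 3 reads in each sedentary library would give. On the log2(RPM + 1) scale, which understates changes of low values, the difference was 2.11 (standard error 0.63, 95% interval 0.57 to 3.66). Its size rested on the pseudocount, at 5.08 with 0.1 RPM and 0.42 with 10 RPM added, and limma voom gave 7.15. limma with Benjamini-Hochberg adjustment did not call it (adjusted p = 0.098, unadjusted p = 0.016). Without replicate 1 or without replicate 2 of the libraries labelled exercise the difference was 2.45 and 1.77. In these fits the spread rested on the sedentary libraries, both at 0, and the lone exercise library was assumed to vary like them. Over the alternatives with all libraries its adjusted p ranged from 0.068 to 0.25. Because miR-126a-5p passed the filter on low values only through the group where it was high, it had to differ among the tested miRNAs. By the title letters it would be lower with exercise.

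Detection differed between the same libraries. 12 miRNAs, miR-126a-5p included, were above 0 in both libraries labelled exercise and at 0 in both labelled sedentary. The opposite pattern was seen for 2. Within a label such gaps were more common, with 73 miRNAs above 0 in only 1 of the 2 sedentary libraries. Under the exercise label, 68 were above 0 in only 1 of 2. Of the 12, 2 had at least 53 reads in each library labelled exercise. The part of detection in the result for miR-126a-5p was not tested.

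As a share of the reads on both arms, miR-126a-5p took 0 of 1268 reads and 0 of 1422 reads in the libraries labelled sedentary. Counting error alone allows shares of up to 0.237% and 0.211% there. In the libraries labelled exercise miR-126a-5p took 3.45% (95% Wilson interval 2.65% to 4.49%) and 6.67% (5.51% to 8.06%). The 3p arm held nearly all miR-126a reads in each library. The log2 ratio of miR-126a-3p to miR-126a-5p, with 1 RPM added to each, was 6.00 ± 0.17 (SD, n = 2) under the sedentary label and 3.93 ± 0.56 (SD, n = 2) under the exercise label. This difference of -2.06 gave p = 0.333 in an exact two-sided permutation test, the smallest p that 2 libraries against 2 allow. With miR-126a-5p at 0 in both sedentary libraries and admitted through the exercise libraries, this separation was largely fixed by the filter. Among 35 hairpins with both arms listed and above 0, the lower arm took a median of 15.7%, and miR-126a, at 2.62% over all libraries, was 8th from the lowest. The median lower-arm share of these hairpins was 4.39% under the sedentary and 14.2% under the exercise label, and the part of this in the result for miR-126a-5p was not tested. The share of the lower arm was higher under the exercise label for 20 and lower for 14 of the 34 hairpins with reads in both groups.

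**Figure D2:**
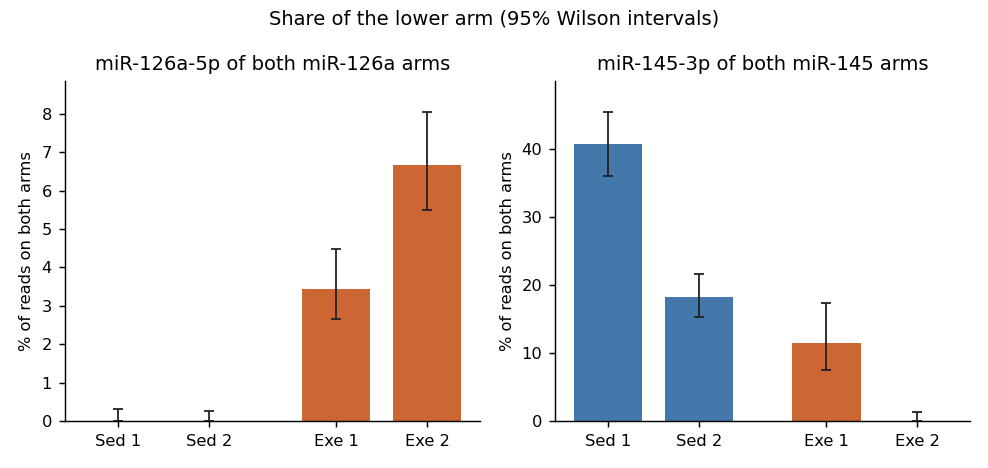
Reads on the less abundant arm as a percentage of the reads on both arms of miR-126a (left) and miR-145 (right) in each library, with 95% Wilson intervals as error bars. The miR-126a-5p share is 0 in both sedentary libraries and 3.45% and 6.67% in the exercise libraries, while the miR-145-3p share is 40.7% and 18.2% in the sedentary and 11.5% and 0 in the exercise libraries.

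The smooth muscle pair was examined next. miR-143-3p held 1764 and 1812 RPM in the libraries labelled sedentary and 1495 and 1455 RPM in those labelled exercise. The groups did not overlap, and the replicates lay close together, with means of 1788 ± 33.9 and 1475 ± 28.6 RPM (SD, n = 2 each). Its log2 fold change was -0.28 (standard error 0.13, 95% interval -0.59 to 0.037, adjusted p = 0.22 from limma), which was not called. The ratio of the group means was 0.825.

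miR-145-5p, the arm of miR-145 known to act on smooth muscle, held 11.3 and 21.8 RPM in the libraries labelled sedentary and 6.64 and 12.9 RPM in those labelled exercise. The groups overlapped, and replicate 2 exceeded replicate 1 by a ratio of 1.94 under each label. The log2 difference of -0.70 (SE 0.65, limma adjusted p = 0.54) lay within the spread between replicates, with a 95% interval from -2.30 to 0.90.

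miR-145-3p had 170 and 101 reads (7.72 and 4.86 RPM) in the libraries labelled sedentary against 19 and 0 reads (0.865 and 0 RPM) in those labelled exercise. Both sedentary libraries lay above both exercise libraries. Its log2 fold change was -2.39 (standard error 0.83, 95% interval -4.45 to -0.33), and limma did not call it after adjustment (adjusted p = 0.13, unadjusted p = 0.030). This size too rested on the pseudocount, at -4.33 with 0.1 RPM and -0.64 with 10 RPM added, and limma voom gave -5.46. The miR-145-3p share of the reads on both miR-145 arms was 40.7% (95% Wilson interval 36.1% to 45.4%) and 18.2% (15.2% to 21.6%) under the sedentary label. Under the exercise label it was 11.5% (7.50% to 17.3%) and 0 of 286 reads, which allows up to 1.05% by counting error alone. miR-145-3p, above 0 in 1 of 2 libraries labelled exercise, passed the filter on low values through the sedentary group, so its difference is a description as well.

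Although miR-143 and miR-145 come from neighbouring hairpins, their levels were far apart. miR-143-3p had 157 and 82.9 reads for each read of miR-145-5p in the libraries labelled sedentary, and 225 and 113 in those labelled exercise. These ratios overlapped between groups, and in each group the library numbered 1 was higher.

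miR-221-3p was close to the floor and varied within its group. It had 0 and 147 reads (0 and 7.07 RPM) in the libraries labelled sedentary and 18 and 37 reads (0.819 and 1.67 RPM) in those labelled exercise. The exercise values lay between the sedentary ones. The log2 difference was -0.37 (SE 1.13, limma adjusted p = 0.89). It came to 1.14 once sedentary replicate 2 was left out and to -1.87 once sedentary replicate 1 was, so its sign rested on 1 library. It was also positive with all libraries under pseudocount 0.1 (0.59) and limma voom (1.58).

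**Figure D3:**
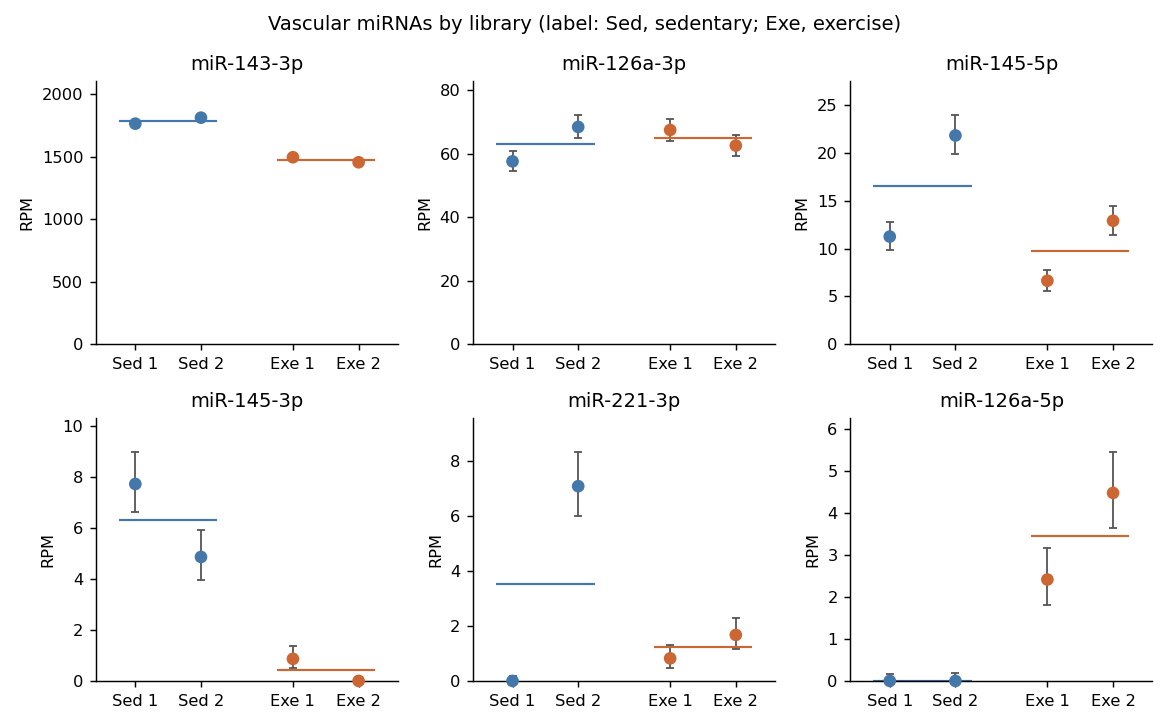
RPM of the 6 vascular arms in each library (Sed, sedentary label; Exe, exercise label), with exact 95% Poisson intervals of the reads as error bars and group means as horizontal lines. miR-143-3p and miR-145-3p are lower and miR-126a-5p is higher in both exercise libraries, whereas the other 3 arms overlap between groups.

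In all, limma called 0 of the 6 arms (adjusted p below 0.05 with a log2 change beyond 1 in size), where it called 7.87% of the 178 miRNAs tested (14). With the p left unadjusted, 2 of the 6 passed both limits, miR-126a-5p and miR-145-3p, against 21.9% of all tested (15.2% higher, 6.74% lower). Both of these arms had passed the filter on low values through the group where they were high, so counts that include them are descriptions. limma voom on the derived reads also called 0 of the 6, against 6.74% of all tested. The groups did not overlap for 3 of the 6 arms, 2 lower and 1 higher in the libraries labelled exercise, which was near the 52.2% of all tested miRNAs (32.0% higher, 20.2% lower). The median log2 fold change was -0.32 over the 6 arms and 0.21 over all 178.

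Whether the groups overlapped for miR-143-3p and miR-126a-3p depended on the denominator. The reads on listed miRNAs made up 3.43% and 3.92% of the library totals under the sedentary label and 3.15% and 2.93% under the exercise label. As a share of the listed miRNA reads, miR-143-3p took 5.15% and 4.62% in the libraries labelled sedentary and 4.74% and 4.96% in those labelled exercise, and the groups overlapped. miR-126a-3p took 0.168% and 0.175% against 0.214% and 0.213%, with no overlap, as for 56.2% of the tested miRNAs on this scale (39.9% higher, 16.3% lower). With this scaling the log2 fold change was -0.0082 for miR-143-3p (adjusted p = 0.96 from limma) and 0.31 for miR-126a-3p (adjusted p = 0.29 from limma), and the median over all tested miRNAs moved from 0.21 to 0.44. Of the 6 arms, 0 were called by limma with this scaling (8.43% of all tested) or with median-of-ratios scaling (7.87%). Over the alternatives with all libraries, the adjusted p ranged from 0.092 to 0.96 for miR-143-3p and from 0.29 to 0.92 for miR-126a-3p.

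A ratio of 2 miRNAs within a library does not use that denominator. miR-143-3p had 30.6 and 26.5 reads for each read of miR-126a-3p in the libraries labelled sedentary and 22.2 and 23.3 in those labelled exercise. The groups did not overlap. With 1 RPM added to each, the log2 ratio of miR-126a-3p to miR-143-3p was -4.81 ± 0.15 (SD, n = 2) under the sedentary label and -4.48 ± 0.048 (SD, n = 2) under the exercise label. The difference of 0.33 gave p = 0.333 in the exact two-sided permutation test, again the smallest possible.

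**Figure D4:**
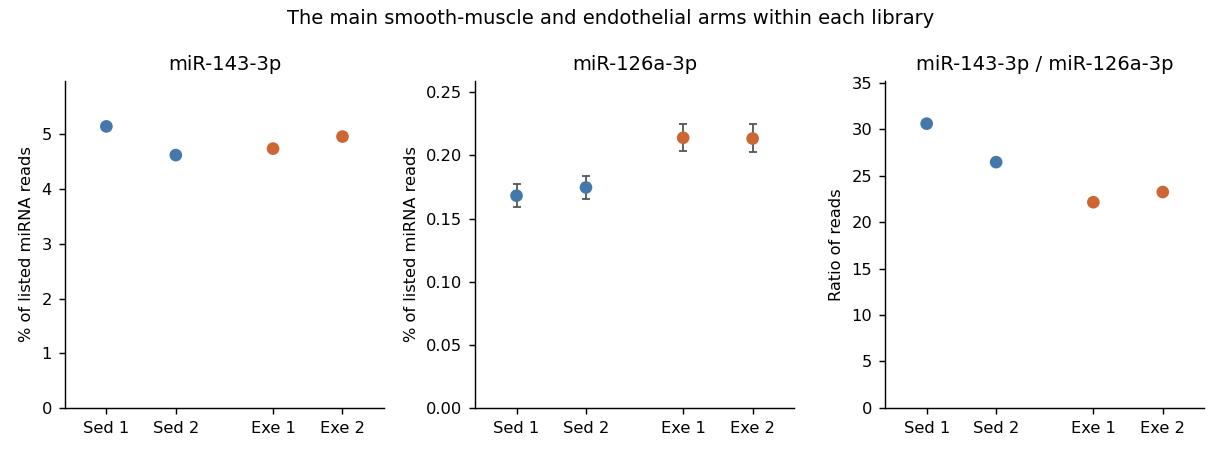
miR-143-3p (left) and miR-126a-3p (middle) as a percentage of the listed miRNA reads with 95% Wilson intervals, and reads of miR-143-3p per read of miR-126a-3p (right), in each library. The miR-126a-3p share is 0.168% and 0.175% under the sedentary label and 0.214% and 0.213% under the exercise label, and the ratio is 30.6 and 26.5 against 22.2 and 23.3.

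**Figure D5:**
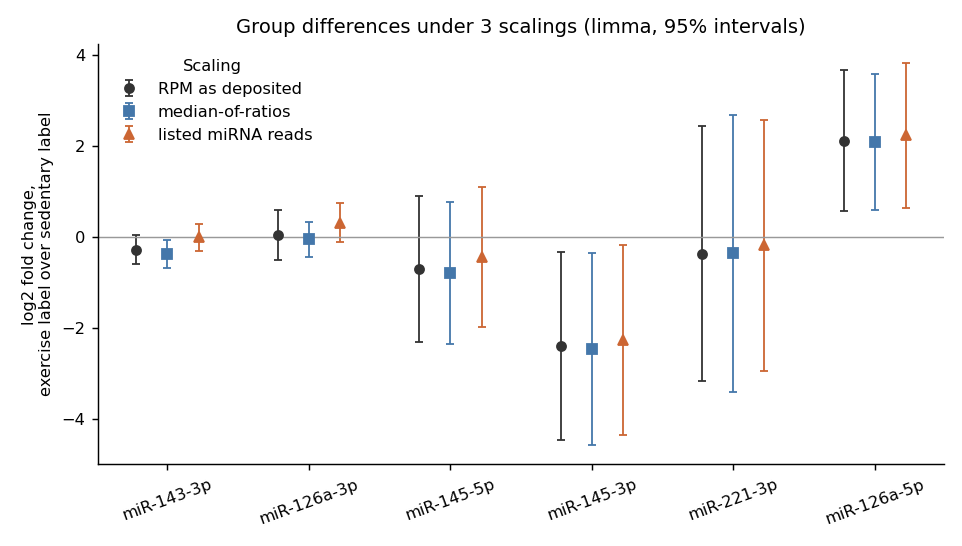
log2 fold change (exercise label over sedentary label) of the 6 arms with 95% intervals from limma, under the deposited RPM, median-of-ratios scaling and scaling to the listed miRNA reads. The value of miR-143-3p is -0.28, -0.38 and -0.0082 in that order, while the signs of miR-126a-5p and miR-145-3p are set by libraries at or near 0 reads, which scaling cannot move.

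Other miRNAs with a like course over the 4 libraries were sought by the root-mean-square (RMS) difference of log2(RPM + 1) after each miRNA's mean was subtracted. Beside miR-143-3p lay miR-24-3p (RMS difference 0.071), with 44.8 and 46.3 RPM under the sedentary label and 38.6 and 41.6 RPM under the exercise label, then miR-185-5p (0.073) and miR-378b (0.11). miR-126a-3p was nearest to miR-378b (0.071), let-7c-5p (0.084) and miR-30d-5p (0.11). miR-378b held at most 0.144 RPM, where values on this scale hardly vary.
For miR-126a-5p the nearest was miR-186-5p (0.092), with 0 and 0.144 RPM against 2.96 and 4.65 RPM, followed by miR-22-3p (0.27) and miR-450a-5p (0.30). miR-145-3p was nearest to miR-224-5p (0.17), which held 9.04 and 5.44 RPM against 1.59 and 0 RPM, then to miR-3473 (0.36) and miR-122b (0.40). A nearest miRNA exists by construction, so these distances are descriptions. miR-145-5p was nearest to miR-184 (0.23), miR-423-3p (0.27) and miR-503-3p (0.30), and miR-221-3p to miR-342-5p (0.26), miR-339-3p (0.32) and miR-451-5p (0.38). These likenesses were over 4 libraries and carry no test.

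Other miRNAs of the vessel wall were examined beside the 6 arms. Of 11 tested arms in the endothelial list, 0 were called by limma (median log2 fold change 0.33, with 6 above 0), against 5.06% called higher and 2.81% called lower among all tested. Its most abundant member, miR-10a-5p, held 4491 and 3179 RPM under the sedentary label and 3482 and 3093 RPM under the exercise label. miR-23a-3p, from the cluster it shares with miR-27a and miR-24-2, held 116 and 192 RPM against 215 and 210 RPM. Of 5 tested arms in the smooth muscle list, 1 was called, higher under the exercise label (median 0.29, with 5 above 0, against a median of 0.21 over all tested). This was miR-26a-5p, with 134 and 96.9 RPM against 288 and 301 RPM. Its log2 difference of 1.36 (SE 0.20, limma adjusted p = 0.025) would be lower with exercise by the title letters. The list summed to 203 and 220 RPM under the sedentary label and 429 and 473 RPM under the exercise label, the opposite direction to miR-143-3p. miR-26a-5p held much of these sums. miR-146a-5p, a brake on inflammatory signalling, held 35.2 and 49.8 RPM against 34.0 and 57.4 RPM.

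Blood cells, platelets among them, also hold miR-126, so their markers are given beside it. Some hairpins stand in more than 1 list, such as miR-24, miR-223 and miR-146a. Of 11 tested platelet arms, 0 were called by limma, against 7.87% of all tested (median log2 fold change 0.29, summed level 166 and 152 RPM under the sedentary label and 222.3 and 206 RPM under the exercise label). The platelet and myeloid marker miR-223-3p was at 3.77 and 0 RPM against 2.64 and 1.67 RPM, and its more abundant arm here, miR-223-5p, at 14.8 and 7.84 RPM against 6.14 and 3.88 RPM. Both arms were under miR-126a-3p in each library. The named members miR-191a-5p and miR-24-3p had log2 fold changes of 1.12 (adjusted p = 0.058 from limma) and -0.18. The white cell list had 1 call among 9 tested arms (5.06% of all tested were called higher), miR-150-5p of lymphocytes, at 41.6 and 56.9 RPM against 149 and 129 RPM (log2 fold change 1.49), while its summed level was 116 and 144.99 RPM against 241 and 235 RPM. miR-142-3p, a miRNA of blood cells, was at 3.45 and 0 RPM against 3.91 and 5.01 RPM. The white cell sum was higher in the same libraries as miR-126a-5p, with miR-150-5p holding much of it and miR-223-5p lower there, and its part in that result was not tested.

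Of 4 tested red cell arms, 0 were called by limma, against 7.87% of all tested (median -0.052), and the summed level, 8848 and 11382 RPM under the sedentary label against 5829 and 4854 RPM under the exercise label, was almost that of miR-486. miR-486 itself had a log2 difference of -0.93 (limma adjusted p = 0.043) and missed the call by its fold. miR-451-5p, which is specific to red cells, held 14.7 and 148 RPM against 54.0 and 70.4 RPM. It was lowest in the sedentary library in which miR-221-3p was at 0. Of 2 tested liver arms, 1 was called (2.81% of all tested were called lower), miR-122-5p of hepatocytes, with 1394 and 1469 RPM against 696 and 732 RPM, and miR-192-5p had a log2 fold change of 0.089. The liver list summed to 1462 and 1601 RPM against 811 and 821 RPM, lower in the same libraries as miR-143-3p, and its part in that result was not tested. The calls of miR-26a-5p, miR-150-5p and miR-122-5p were each lost with a single variance prior (limma adjusted p of 0.13, 0.12 and 0.14). Leaving out any 1 of the 4 libraries also ended each of them, with limma adjusted p from 0.054 to 0.32. The calls of miR-26a-5p and miR-150-5p were lost without the filter too (both 0.053), that of miR-26a-5p with median-of-ratios scaling (0.052), and that of miR-122-5p, by its fold, with pseudocount 10 (log2 difference -0.99) and with scaling to the listed miRNA reads (-0.73).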

How the data were processed

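Small RNA of serum Exos was measured in 4 libraries, 2 labelled exercise and 2 labelled sedentary. Reads were trimmed with cutadapt, kept at a limited length range, aligned to mRatBN7.2 (Bowtie, per the labels) and counted with featureCounts on miRBase; the authors tested with DESeq2. The authors deposited RPM values, which they name TPM and which were not scaled for length. Dividing each non-zero value by the smallest in its library, taken as 1 read, gave whole numbers throughout (100%, within 0.01 reads). Values of 20 reads or fewer were too rare (10 to 19 a library, where 100 were required) to treat the reads as recovered, so edgeR and DESeq2 were not run, and limma voom on the derived reads served only as an alternative.

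limma 3.58.1 (R 4.3.3) was fitted to log2(RPM + 1) of the 178 miRNAs above 0 in at least 2 libraries, with a variance prior following mean expression and Benjamini-Hochberg adjustment. A call required an adjusted p below 0.05 with a log2 change beyond 1 in size. Exact permutation tests and intervals used SciPy 1.17.1. The fit was tested on simulated reads with the same dispersion for all miRNAs, which does not cover arms that go from many reads to 0 between libraries. Depth and floors stand at the start of the results.

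Members and marker lists (endothelial, smooth muscle, platelet, red cell, white cell, liver, striated muscle, epithelial; all listed arms of the named hairpins) were chosen with earlier results of these data known. Named miRNAs are the members, the 3 nearest in course to each, miRNAs sharing a seed, neighbours in mean RPM, and the 2 most abundant of each list. Defining markers of blood cells and striated muscle were added after their values were seen. Alternatives changed the pseudocount, filter, scaling, variance prior, replicate block, groups and libraries. Deviations of same-numbered libraries had a correlation of -0.15, so the numbers were not taken to pair the libraries.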

Additional observations from a re-analysis of the deposited data

How the results depend on the processing

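What caused these changes was not tested. With groups by the title letter all signs turned by construction, giving -0.049 for miR-126a-3p, -2.11 for miR-126a-5p, 0.28 for miR-143-3p, 2.39 for miR-145-3p, 0.70 for miR-145-5p and 0.37 for miR-221-3p. miR-126a-3p also turned with median-of-ratios scaling (-0.052), and miR-221-3p with pseudocount 0.1 (0.59) and limma voom (1.58). With 1 library left out, the log2 fold changes ranged from -0.074 to 0.17 for miR-126a-3p, 1.77 to 2.45 for miR-126a-5p, -0.30 to -0.26 for miR-143-3p, -2.84 to -1.94 for miR-145-3p, -1.15 to -0.25 for miR-145-5p and -1.87 to 1.14 for miR-221-3p. Pseudocounts of 0.1 and 10 RPM and limma voom moved miR-126a-5p to 5.08, 0.42 and 7.15 and miR-145-3p to -4.33, -0.64 and -5.46. With 1 library left out, the group differences of the within-library ratios ran from -2.46 to -1.67 for miR-126a-3p over miR-126a-5p (-5.03 and -0.38 with pseudocounts of 0.1 and 10 RPM) and from 0.22 to 0.43 for miR-126a-3p over miR-143-3p.

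Of all tested miRNAs, limma called 14 (9 higher, 5 lower), 3 without the filter (243 tested), 0 with a single variance prior (44 at an unadjusted p under 0.05 and the fold threshold), and 0 to 11 with 1 library left out. Median-of-ratios scaling gave 5 higher and 9 lower, and scaling to the listed miRNA reads 13 higher and 2 lower. The fit with the replicate block called 18, as did a block with the numbers crossed (chosen after seeing the data). Neither called any of the 6 vascular arms by limma. In each, 1 of the 6 passed both limits unadjusted, against 27 and 30 of the 178 tested. The endothelial median was 0.23 with median-of-ratios scaling and 0.046 to 0.50 with 1 library left out. Leaving out 1 library gave medians of 0.060 to 1.13 (smooth muscle list), -0.16 to 1.04 (platelet list) and 0.45 to 0.95 (white cell list). The red cell median (-0.72 to 0.69) and the epithelial median (-0.21 to 1.03) also changed sign, as did the platelet median, and the striated muscle median ran from -0.58 to -0.21. A lone library was assumed to vary like the others. By mean level, miR-145-3p, miR-221-3p and miR-126a-5p were left out by a filter at a mean of 10 RPM. edgeR and DESeq2 were not run.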

Other observations

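Striated muscle and epithelial miRNAs were also listed. Of 4 tested striated muscle arms 0 were called by limma, against 7.87% of all tested (median log2 fold change -0.20), with miR-1-3p at 327 and 355 RPM under the sedentary label and 473 and 435 RPM under the exercise label, and miR-206-3p at 41.6 and 72.9 against 21.9 and 14.8 RPM. miR-133a-3p, the heart and skeletal muscle miRNA, was at 0.0454 RPM in 1 sedentary library and at 0 in the other 3. Of 4 tested epithelial arms 0 were called by limma, against the same 7.87% (median -0.099), and miR-200a-3p held 5.81 and 13.7 against 15.2 and 6.73 RPM, while miR-203a-3p held 8.18 and 2.12 against 0 and 16.4 RPM.

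Replicates of miR-143-3p differed by 0.039 (sedentary label) and 0.040 (exercise label) on the log2 scale, where the median absolute difference over tested miRNAs above 0 in both replicates was 0.50 (115 miRNAs) and 0.36 (151 miRNAs). Those of miR-145-5p differed by 0.96 in each group, although both come from neighbouring hairpins.

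In mean RPM, miR-126a-3p stood between miR-146b-5p (64.3 RPM) and miR-320-3p (63.0 RPM), and miR-143-3p between let-7c-5p (1960 RPM) and miR-25-3p (1320 RPM).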
